A study of Homo sapiens with 6 samples.

Results

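The genes described here encode enzymes that make, recycle, convert and clear purine and pyrimidine nucleotides. They were taken by gene symbol from a list of 48 names, and all 48 were among the 11846 genes of the expression table. They cover 8 roles, which are IMP synthesis, the AMP and GMP branch, de novo pyrimidine synthesis, PRPP supply, salvage, deoxynucleotide synthesis, the mono- and diphosphate kinases, and breakdown and clean-up. The samples were poly(A) RNA libraries of AGS, a human gastric adenocarcinoma cell line, 3 with ANXA2P1 knockdown and 3 controls, described as biological replicates. ANXA2P1 is a processed pseudogene of the annexin A2 gene. Per the labels, control cells received scr-shRNA, a scrambled hairpin, and the ANXA2P1 reagent is written ANXA2P1-shRNAp, whereas the study's methods describe CRISPR interference with a scrambled or an ANXA2P1 guide, so the means of knockdown differed between the sources. All cells were grown alike in medium with serum, and no time after transfection is given. The comparison asks which transcripts differ when ANXA2P1 is reduced. No value of ANXA2P1 was used, so the level of the targeted transcript gives no check on the labels, and a preparation batch that followed the groups cannot be told apart from the knockdown. All 8 epithelial marker genes examined were in the table and tested, and 1 of 8 fibroblast and endothelial markers was (COL1A1, at 1.5 to 1.57 FPKM in knockdown and 1.38 to 1.62 FPKM in control libraries), as was 1 of 7 blood cell markers (LYZ, which gastric epithelium also expresses, at 175 to 343 FPKM in knockdown and 182 to 374 FPKM in control libraries).

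Cells obtain purine nucleotides by 2 routes. In the de novo route, phosphoribosyl pyrophosphate (PRPP) and small precursors are built stepwise into inosine monophosphate (IMP), which is converted to AMP or GMP. In salvage, free bases and nucleosides are joined to PRPP or phosphorylated, at a much lower energy cost. Pyrimidines are built first as a ring and then joined to PRPP, and ribonucleotide reductase turns ribonucleotides into the deoxynucleotides that DNA replication uses. Growing tumour cells are known for a high demand on all of these steps, and several antimetabolite drugs used in gastric cancer, fluorouracil among them, act on this network. In bulk RNA, fewer cells with a transcript and less of it per cell cannot be told apart.

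Values are FPKM as deposited, that is, fragments per kilobase of a gene relative to library size. Differences are log2 fold changes of knockdown over control on the log2(FPKM + 0.1) scale, fitted with limma across the 10813 genes with a mean of at least 0.5 FPKM, so that a positive value means a higher level in knockdown libraries. Of the 48 genes, 47 were tested. ADSL, the adenylosuccinate lyase that acts in both IMP synthesis and AMP formation, stayed below the minimum with 0.385 ± 0.0454 FPKM in knockdown and 0.365 ± 0.0461 FPKM in control libraries (SD, n = 3 each), on 92 to 120 reads per library. Of its exon bases, 18.9% overlap the protein-coding gene AL022238.4 on the same strand, so the split of reads between these genes, and the low level of ADSL, is uncertain. Libraries held 19010940 to 22911995 recovered reads, the fewest in knockdown library 1.

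None of the 47 tested genes passed a Benjamini-Hochberg adjusted p of 0.05 in limma, where 0.129% of all tested genes did (14 of 10813), 0.111% lower and 0.0185% higher in knockdown. The count over all genes rested on which libraries were used, with 255 genes without knockdown library 1, 5 without knockdown library 3 and 0 without any 1 of the other 4. At an unadjusted p under 0.05 there were 4 of them, or 8.51%, against 10.6% of all tested genes. HPRT1, DCK and PRPS2 were the 3 lower in knockdown, where the share over all genes was 5.92%, and UCK1 was the 1 higher, where it was 4.71%. At the study's fold change of 1.2, combined here with an unadjusted limma p under 0.05 (the 1.2-fold thresholds), HPRT1 alone of the 47 was called, where 4.88% of all tested genes were called, 3.35% lower and 1.54% higher in knockdown. The groups did not overlap for 9 of the 47 genes, 19.1%, against 19% of all tested genes. Of these 9, 6 were lower in knockdown, where the share over all genes was 9.13%, and 3 were higher, where it was 9.86%. With all 6 libraries these shares over the 47 genes lay near those over all genes. The count was 16 without knockdown library 1 (34%, against 34.2% of all genes), 14 without knockdown library 3 (29.8%, against 37.4%) and 15 without control library 2 (31.9%, against 28.7%). HPRT1 had the lowest p of the 47, which ranked 67 among the 10813. The median log2 fold change was -0.01 over the 47 genes and 0.01 over all tested genes.

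**Figure D1:**
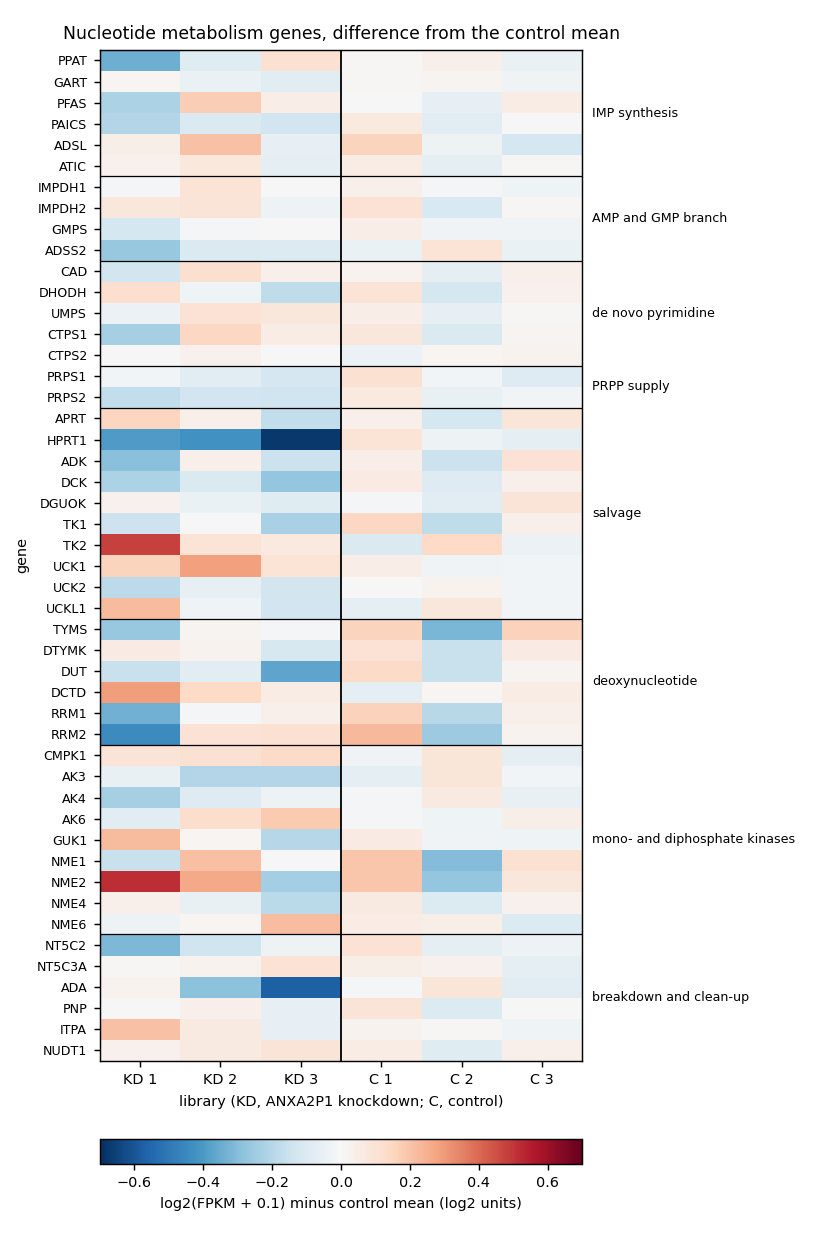
Difference of log2(FPKM + 0.1) from the mean of the control libraries, for each of the 48 genes (one per line, grouped by role) in each library, knockdown libraries at the left. HPRT1 is the darkest blue line across all 3 knockdown libraries, ADA is dark in knockdown library 3 and pale in knockdown library 1, and most other lines are pale or mixed.

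HPRT1, the salvage enzyme hypoxanthine-guanine phosphoribosyltransferase, joins hypoxanthine and guanine to PRPP and so returns free purine bases to IMP and GMP; its inherited loss causes Lesch-Nyhan disease. It had 28.1, 27.6 and 23.1 FPKM in knockdown libraries 1, 2 and 3, against 39.6, 36.1 and 35.4 FPKM in control libraries 1, 2 and 3. All knockdown libraries lay below all control libraries, and the highest knockdown value was well under the lowest control value. The means were 26.3 ± 2.75 FPKM in knockdown and 37.0 ± 2.29 FPKM in control libraries (SD, n = 3 each), a fold of 0.709. The log2 fold change was -0.50 (SE 0.0899, 95% interval -0.70 to -0.29), with a limma p of 0.000538 and an adjusted p of 0.0869. The gene rested on 837 to 1510 reads per library. It occupies chrX:134460153-134520513 on the plus strand of hg38 (GENCODE 29), and none of its transcripts' 50-base stretches occurred in another annotated gene. Leaving out knockdown library 1 brought its adjusted p to 0.0106, and with it ADA to 0.039, while 2.36% of all genes then passed. Leaving out each of the other libraries gave adjusted p-values of up to 0.436, with log2 fold changes from -0.55 to -0.41 over all 6 omissions. HPRT1 met the 1.2-fold thresholds in each of the 15 other settings tried.

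The promoter of HPRT1 is shown because this is the gene with the lowest p, and that of PPAT and PAICS because these neighbours, encoding the enzyme of the committed first step and a later enzyme of IMP synthesis, start 137 bases apart on opposite strands. The sequences are from RefSeq (GRCh38.p14), 250 bases before to 50 after each start, and run 5′ to 3′ on the gene's own strand. Capitals mark the GC box letters GGGCGG or their reverse complement CCGCCC, the core of Sp1 sites, and the E-box letters CACGTG, a motif that MYC with MAX can bind. The windows are chrX:134459915-134460214 (plus) for HPRT1, chr4:56435566-56435865 (minus) for PPAT and chr4:56435502-56435801 (plus) for PAICS.
HPRT1: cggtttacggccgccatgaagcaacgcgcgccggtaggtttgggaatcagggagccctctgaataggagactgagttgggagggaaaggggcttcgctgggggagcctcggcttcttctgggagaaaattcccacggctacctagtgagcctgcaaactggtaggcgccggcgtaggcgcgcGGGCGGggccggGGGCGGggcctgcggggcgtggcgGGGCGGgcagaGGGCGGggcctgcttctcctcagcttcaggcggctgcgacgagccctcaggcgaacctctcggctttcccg
PPAT: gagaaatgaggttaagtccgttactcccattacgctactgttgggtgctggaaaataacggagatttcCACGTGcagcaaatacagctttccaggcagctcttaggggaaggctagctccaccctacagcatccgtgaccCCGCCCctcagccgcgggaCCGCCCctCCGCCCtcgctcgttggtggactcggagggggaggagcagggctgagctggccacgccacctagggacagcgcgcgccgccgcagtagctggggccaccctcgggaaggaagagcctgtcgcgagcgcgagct
PAICS: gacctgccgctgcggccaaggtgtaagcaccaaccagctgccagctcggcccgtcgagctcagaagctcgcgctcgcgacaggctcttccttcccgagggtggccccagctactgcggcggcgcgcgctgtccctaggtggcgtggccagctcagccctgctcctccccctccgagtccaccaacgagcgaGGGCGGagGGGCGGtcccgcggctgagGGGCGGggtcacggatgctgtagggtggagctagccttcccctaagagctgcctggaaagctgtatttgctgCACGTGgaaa
The HPRT1 window held 4 GC boxes, no CACGTG and no TATAAA. The PPAT and PAICS windows shown overlap, so that most of their letters are the same stretch read on opposite strands, with 3 GC boxes and 1 CACGTG in each. PAICS also had windows at other starts, chr4:56410257-56410556 (0 GC boxes) and chr4:56436010-56436309 (3 GC boxes), both without CACGTG. The PAICS start used for the distance of 137 bases was picked as the one whose window holds CACGTG. Its E-box is therefore no separate observation about PAICS. For 46 of the 48 genes the RefSeq table had at least 1 window, 74 windows in all. CACGTG was in 11 of the 74 (14.9%), against 7.26% of all 35116 windows, and belonged to 10 of the genes. GGGCGG on either strand was in 57 (77.0%), against 45% of all windows, and TATAAA on either strand was in 4 (5.41%), against 11.5%. The 1 CACGTG that the PPAT and PAICS windows share is counted in both. The shares over all windows were not limited to genes expressed in these cells. These are matches of letters, not measured binding.

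The 5 tested enzymes of IMP synthesis had log2 fold changes from -0.15 to 0.01. PPAT, the amidophosphoribosyltransferase that commits PRPP to the purine route, had 6.48, 7.77 and 8.89 FPKM in knockdown libraries 1, 2 and 3, against 8.31, 8.47 and 7.98 FPKM in control libraries. The groups overlapped, with knockdown library 1 lowest and knockdown library 3 highest of all 6. The log2 fold change of PPAT was -0.11 (SE 0.110, adjusted p = 0.766), and it was 0.01 without knockdown library 1. PAICS, which catalyses a carboxylation and the ligation that follows it, had 39.6, 42.7 and 41.6 FPKM in knockdown libraries, against 48, 43.5 and 45.8 FPKM in control libraries. For PAICS the groups did not overlap, though knockdown library 2 and control library 2 were close; the log2 fold change was -0.15 (SE 0.0648, 95% interval -0.29 to 0.00, adjusted p = 0.481). The 3 remaining tested enzymes of IMP synthesis, GART, PFAS and ATIC, had log2 fold changes of -0.04, 0.00 and 0.01. ATIC, which closes the purine ring, averaged 49.5 ± 2.28 FPKM in knockdown and 49.0 ± 1.99 FPKM in control libraries (SD, n = 3 each).

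At the branch from IMP, IMPDH2 and IMPDH1 make the XMP that GMPS turns into GMP, and ADSS2 starts the path to AMP. ADSS2 had 24.1, 27.1 and 27.2 FPKM in knockdown libraries, against 28.1, 31.0 and 28.1 FPKM in control libraries. All knockdown values lay below all control values, by a narrow margin, and the log2 fold change was -0.15 (SE 0.0744, adjusted p = 0.513). IMPDH2, the more abundant IMP dehydrogenase in these cells, had 62.4, 63.0 and 57.6 FPKM in knockdown libraries, against 63.3, 54.8 and 59.4 FPKM in control libraries, with overlapping groups and a log2 fold change of 0.05 (95% interval -0.12 to 0.22). IMPDH1 had 18.9, 20.3 and 19.0 FPKM in knockdown libraries, against 19.5, 18.9 and 18.6 FPKM in control libraries, also overlapping, and a log2 fold change of 0.03 (95% interval -0.11 to 0.17). GMPS had 13.6, 14.7 and 14.8 FPKM in knockdown libraries, against 15.3, 14.6 and 14.6 FPKM in control libraries, so that only knockdown library 1 lay below the control range, and its log2 fold change was -0.05 (95% interval -0.20 to 0.10).

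The 5 genes of de novo pyrimidine synthesis ranged in log2 fold change from -0.03 (DHODH) to 0.05 (UMPS), and their groups overlapped in all 5 cases. CAD carries the first steps of the pathway on 1 polypeptide and had 14.7, 17.4 and 16.5 FPKM in knockdown libraries, against 16.4, 15.4 and 16.5 FPKM in control libraries. DHODH, the mitochondrial step, was the lowest in level, with 2.12, 1.91 and 1.71 FPKM in knockdown libraries, against 2.09, 1.78 and 1.99 FPKM in control libraries. Neither CAD nor DHODH had a group that stood above or below the other. UMPS, which completes UMP, had 8.04, 8.88 and 8.72 FPKM in knockdown libraries, against 8.54, 7.93 and 8.32 FPKM in control libraries. For 4 of the 5 genes the 95% interval of the log2 fold change lay within a 1.2-fold change in either direction. Over all tested genes this share was 33.3%. CTPS1, 1 of the 2 CTP synthases, had 6.26, 8.14 and 7.63 FPKM in knockdown libraries, against 7.79, 6.86 and 7.47 FPKM in control libraries. CTPS2, the other, had 8.27, 8.45 and 8.27 FPKM in knockdown libraries, against 8.03, 8.35 and 8.42 FPKM in control libraries. CTPS1 and CTPS2 had log2 fold changes of -0.01 (95% interval -0.26 to 0.23) and 0.01 (95% interval -0.13 to 0.15).

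PRPP itself is made by PRPS1 and PRPS2. PRPS2 had 28.3, 29.1 and 28.9 FPKM in knockdown libraries, against 33.4, 30.8 and 31.5 FPKM in control libraries. The groups did not overlap, and the knockdown values lay close together. The log2 fold change of PRPS2 was -0.15 (SE 0.0592, 95% interval -0.28 to -0.01, limma adjusted p = 0.426). PRPS1 had 12, 11.5 and 11.2 FPKM in knockdown libraries, against 13.1, 12 and 11.4 FPKM in control libraries, with overlapping groups and a log2 fold change of -0.07 (adjusted p = 0.757).

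**Figure D2:**
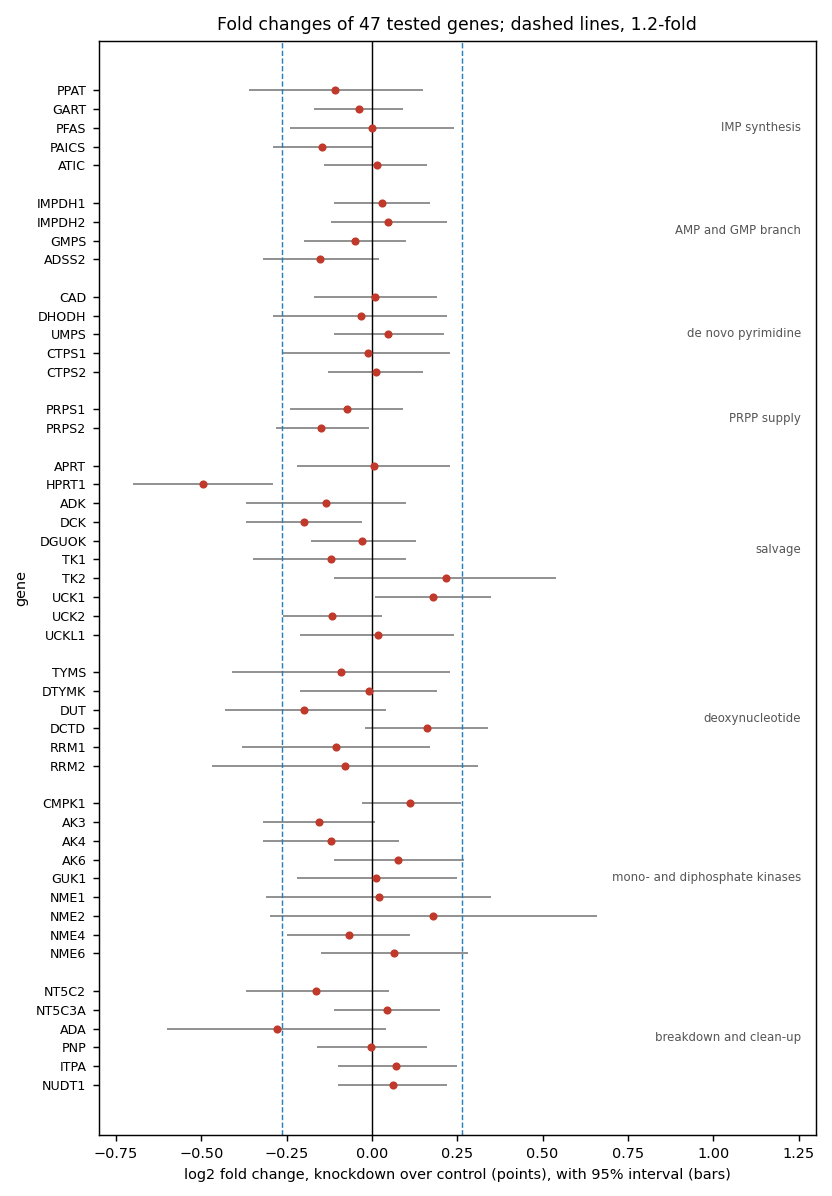
Log2 fold change of knockdown over control (points) with the 95% limma interval (bars) for the 47 tested genes, grouped by role, with dashed lines at a 1.2-fold change. HPRT1, at -0.50, is the only gene whose whole interval lies beyond a dashed line, and TK2 and NME2 have wide intervals that reach past the upper dashed line.

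Of the 10 salvage genes, 4 had groups that did not overlap, 40%, beside 19% of all tested genes, a count over few genes on which no test was run. Salvage was the role with the widest range, from -0.50 (HPRT1) to 0.22 (TK2). APRT, the adenine counterpart of HPRT1, had 70.1, 64.6 and 56.0 FPKM in knockdown libraries, against 64.7, 58.0 and 66.9 FPKM in control libraries. Its groups overlapped, with the highest and the lowest value both among the knockdown libraries, and the log2 fold change was 0.01 (SE 0.0963, 95% interval -0.22 to 0.23). The sign of this value turned to -0.001 when libraries were rescaled to a common median and to -0.008 with a common FPKM total.

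DCK, the deoxycytidine kinase that also activates cytarabine and gemcitabine, had 11.8, 12.8 and 11.4 FPKM in knockdown libraries, against 14.3, 12.9 and 14.1 FPKM in control libraries. The groups were separated only by the gap between knockdown library 2 and control library 2, and the log2 fold change was -0.20 (SE 0.0732, limma adjusted p = 0.38). UCK1, a uridine-cytidine kinase, had 8.44, 9.27 and 8.10 FPKM in knockdown libraries, against 7.82, 7.44 and 7.48 FPKM in control libraries. All UCK1 values in knockdown were above all control values, with a log2 fold change of 0.18 (SE 0.0727, limma adjusted p = 0.438). Its paralog UCK2 had 9.45, 10.3 and 9.81 FPKM in knockdown libraries, against 10.7, 10.9 and 10.6 FPKM in control libraries. UCK2 thus lay lower in all knockdown libraries, with a log2 fold change of -0.12 (SE 0.0636, adjusted p = 0.558). Neither kinase passed the adjusted threshold.

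The thymidine kinases differed widely in level. TK1, the cytosolic enzyme whose transcript follows the cell cycle, was the most abundant of the 48 genes, with 78.2, 86.7 and 73.9 FPKM in knockdown libraries, against 95.4, 76.4 and 88.5 FPKM in control libraries. TK2, the mitochondrial enzyme, had 1.49, 1.12 and 1.10 FPKM in knockdown libraries, against 0.966, 1.16 and 1.01 FPKM in control libraries. Both sets of groups overlapped, and the log2 fold changes were -0.12 (SE 0.0980) for TK1 and 0.22 (SE 0.141) for TK2. Without knockdown library 1 the TK2 value was 0.09, and over the omissions of 1 library it ran from 0.09 to 0.29. The TK1 value ran from -0.21 without control library 2 to -0.05 without control library 1. The other salvage kinases, ADK for adenosine and DGUOK for mitochondrial deoxyguanosine, had log2 fold changes of -0.14 (95% interval -0.37 to 0.10) and -0.03 (95% interval -0.18 to 0.13), and UCKL1 had 0.02 (95% interval -0.21 to 0.24).

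**Figure D3:**
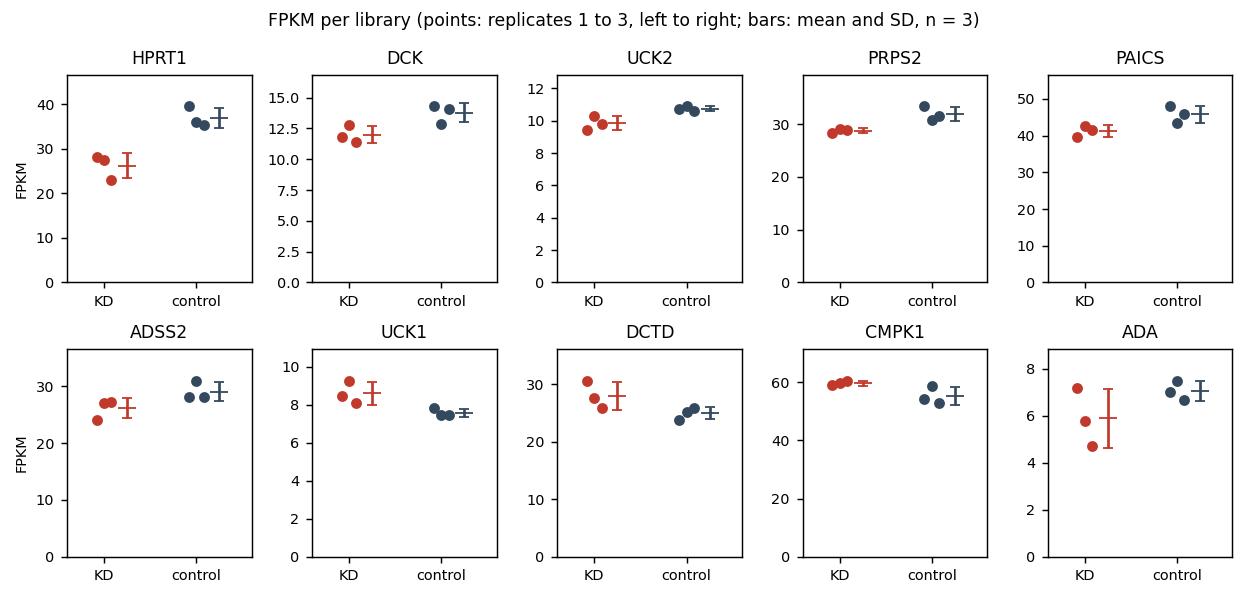
FPKM in each library for the 9 genes whose groups did not overlap and for ADA, with knockdown at the left of each panel, points for replicates 1 to 3 from left to right, and the mean with its SD (n = 3); each axis starts at 0. HPRT1 shows the widest gap, with knockdown values of 23.1 to 28.1 FPKM and control values of 35.4 to 39.6 FPKM, while in DCTD the lowest knockdown and the highest control value are both 25.8 FPKM after rounding.

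Set side by side, de novo and salvage enzymes differed by less than the spread between libraries. The 14 tested de novo enzymes had a median log2 fold change of -0.01, from -0.15 to 0.05, and the 10 salvage enzymes had a median of -0.07. No de novo enzyme had an unadjusted limma p under 0.05, where 10.6% of all tested genes did. For 10 of the 14 de novo enzymes and 3 of the 10 salvage enzymes the 95% interval lay within a 1.2-fold change. It did so for 22 of all 47 genes and for 33.3% of all tested genes. The mean log2 level of the de novo enzymes minus that of the salvage enzymes was -0.178, -0.051 and 0.046 in knockdown libraries 1, 2 and 3, against -0.092, -0.095 and -0.119 in control libraries. The knockdown libraries spread on both sides of the control libraries, and the group means, -0.061 ± 0.112 in knockdown and -0.102 ± 0.014 in control (SD, n = 3 each), differed by 0.041, less than the SD of the knockdown libraries.

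For 3 of the deoxynucleotide enzymes the same 2 libraries, 1 of each group, were lowest. RRM1 and RRM2, the large and small subunit of ribonucleotide reductase, were low in knockdown library 1 and in control library 2. RRM2 had 13.2, 19.3 and 19.4 FPKM in knockdown libraries, against 21.1, 15.1 and 18.3 FPKM in control libraries. RRM1 had 31.3, 39.1 and 40.5 FPKM in knockdown libraries, against 44.1, 34.5 and 40.5 FPKM in control libraries. TYMS, the thymidylate synthase that fluorouracil targets, had 17.2, 21.0 and 20.5 FPKM in knockdown libraries, against 23.1, 16.6 and 23.2 FPKM in control libraries. In all 3 genes the groups overlapped, and the lowest 2 of the 6 libraries were knockdown library 1 and control library 2. The median of the 6 genes, as a log2 difference from the control mean, was -0.21, 0.02 and 0.01 in knockdown libraries, against 0.15, -0.18 and 0.04 in control libraries. The median of 15 proliferation genes was -0.35, -0.03 and -0.12 in knockdown libraries, against 0.13, -0.18 and 0.04 in control libraries, so the same 2 libraries were lowest. MKI67, a marker of cycling cells, had 20.9, 42.2 and 52.4 FPKM in knockdown libraries, against 47.5, 38.3 and 47.8 FPKM in control libraries. The part of proliferation level in the values of RRM1, RRM2 and TYMS was not tested. Of the TYMS exon bases, 39.1% overlap ENOSF1 on the opposite strand. The second strand of the libraries carried U, but whether reads were counted by strand is not stated. Reads of the pair may therefore have been mixed.

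DUT, which clears dUTP and supplies dUMP, had 14.6, 15.4 and 12.6 FPKM in knockdown libraries, against 17.9, 14.6 and 16.5 FPKM in control libraries. Its groups overlapped, and the log2 fold change was -0.20 (SE 0.102, adjusted p = 0.536). DCTD, the dCMP deaminase that also yields dUMP, had 30.6, 27.5 and 25.8 FPKM in knockdown libraries, against 23.8, 25.2 and 25.8 FPKM in control libraries. DCTD was the only gene of this role whose groups did not overlap, with a log2 fold change of 0.16 (SE 0.0767, adjusted p = 0.505). DTYMK, the thymidylate kinase, differed by -0.01 on the log2 scale (95% interval -0.21 to 0.19).

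**Figure D4:**
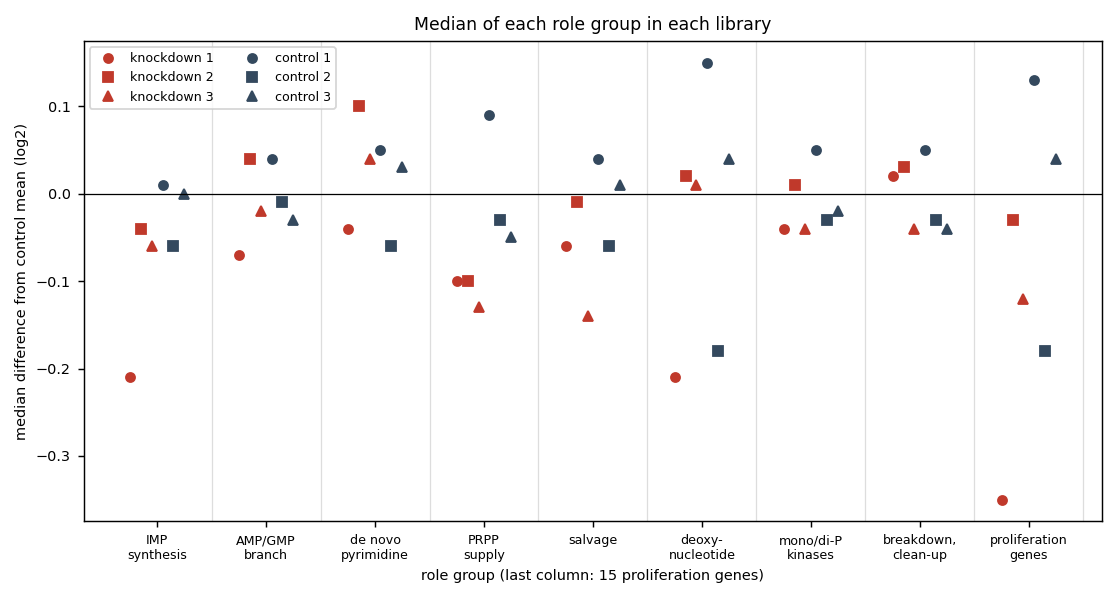
Median difference of log2(FPKM + 0.1) from the control mean over the tested genes of each role, and over 15 proliferation genes in the last column, with 1 symbol per library and knockdown symbols left of control symbols. Deoxynucleotide and proliferation genes share their lowest libraries, knockdown 1 and control 2, and the PRPP supply genes have all 3 knockdown libraries below all control libraries.

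Among the mono- and diphosphate kinases, which raise nucleotides to their di- and triphosphates, the median log2 fold change was 0.02. CMPK1, the UMP-CMP kinase, had 58.9, 59.6 and 60.6 FPKM in knockdown libraries, against 54.3, 58.7 and 52.9 FPKM in control libraries. The knockdown values were close together and just above control library 2, and the log2 fold change was 0.11 (SE 0.0630, adjusted p = 0.579). AK3, a mitochondrial adenylate kinase family member that uses GTP, had 31.9, 28.7 and 28.7 FPKM in knockdown libraries, against 31.6, 35.2 and 32.7 FPKM in control libraries. The AK3 groups overlapped through knockdown library 1 alone, and the log2 fold change was -0.16 (SE 0.0717, adjusted p = 0.49).

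NME1 and NME2 encode nucleoside diphosphate kinase subunits and lie next to each other on chromosome 17. NME2 had 1.15, 0.950 and 0.642 FPKM in knockdown libraries, against 0.899, 0.625 and 0.824 FPKM in control libraries, on 35 to 58 reads per library. NME1 had 7.43, 9.61 and 8.32 FPKM in knockdown libraries, against 9.52, 6.70 and 8.94 FPKM in control libraries. In both genes the groups overlapped, and NME2, at a log2 fold change of 0.18, had the largest SE of the 47 genes, 0.210. Of the 50-base stretches in their annotated transcripts, 23.0% (NME2) and 17.6% (NME1) also occur in other genes, chiefly the readthrough gene NME1-NME2, so the split of reads between these genes is uncertain. The same holds for AK6 (22.9%, chiefly TAF9), RRM2 (20.2%) and ADSL (16.9%, chiefly AL022238.4). NME4 (11.9%) and NT5C3A (10.1%) shared less, and 41 of the 48 genes shared less than 10%. AK4, AK6, GUK1, NME4 and NME6 had log2 fold changes from -0.12 (AK4) to 0.08 (AK6), with overlapping groups.

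In breakdown and clean-up, ADA showed the largest difference. ADA, the adenosine deaminase whose loss causes severe combined immunodeficiency, had 7.18, 5.75 and 4.71 FPKM in knockdown libraries, against 7.01, 7.49 and 6.66 FPKM in control libraries. Knockdown library 1 lay within the control values and the other two lay below them. The log2 fold change was -0.28 (SE 0.140, 95% interval -0.60 to 0.04, adjusted p = 0.528), and it was -0.43 without knockdown library 1, with an adjusted p of 0.039. Without knockdown library 3 it was -0.13, with an adjusted p of 0.53. The spread of ADA was 21.1% of its mean in knockdown and 5.89% in control libraries (coefficient of variation, n = 3 each). None of its 50-base stretches is shared with another gene, and it rested on 297 to 472 reads per library.

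NT5C2, a cytosolic nucleotidase that prefers IMP and GMP, had 4.83, 5.46 and 5.89 FPKM in knockdown libraries, against 6.48, 5.76 and 5.87 FPKM in control libraries. The groups overlapped, with a log2 fold change of -0.16 (SE 0.0918, adjusted p = 0.577), and 36.7% of its exon bases overlap CNNM2 on the opposite strand. PNP, which releases the hypoxanthine and guanine that HPRT1 takes up, averaged 18.9 ± 0.603 FPKM in knockdown and 18.9 ± 1.26 FPKM in control libraries, a log2 fold change of 0.00 (95% interval -0.16 to 0.16). NT5C3A, ITPA and NUDT1, which remove pyrimidine monophosphates or damaged and non-standard nucleotides, had log2 fold changes of 0.04, 0.07 and 0.06.

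Between paralogs, levels per length kept their order in all 6 libraries in each of the 7 pairs examined. For NME1 and NME2 this order rests on the uncertain split of reads described above, with 35 to 58 reads per library for NME2. IMPDH2 exceeded IMPDH1 by 3.03 to 3.31 times in knockdown and 2.90 to 3.25 times in control libraries. PRPS2 exceeded PRPS1 by 2.37 to 2.59 times in knockdown and 2.54 to 2.76 times in control libraries. CTPS1 stood below CTPS2 in all libraries, at a ratio of 0.757 to 0.963 in knockdown and 0.821 to 0.970 in control libraries. In these 3 pairs the ratios of the groups overlapped. Of the 7 pairs examined, the ratio of UCK2 to UCK1 was the only one whose groups did not overlap, at 1.12, 1.12 and 1.21 in knockdown libraries, against 1.36, 1.47 and 1.41 in control libraries. That separation follows from the values of the 2 genes given above, UCK1 higher and UCK2 lower in all knockdown libraries. It is therefore not a further observation. No test was run on these ratios.

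**Figure D5:**
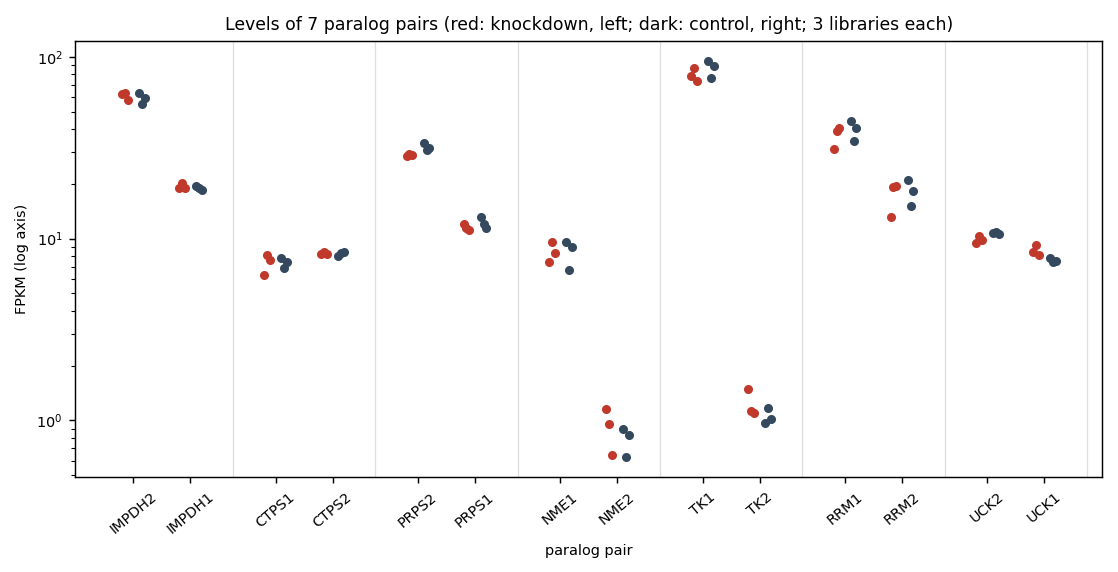
FPKM on a log axis for 7 pairs of paralogs, with the 3 knockdown libraries as red points left of the 3 control libraries as dark points for each gene. UCK2 and UCK1 lie closer together in knockdown libraries (ratios of 1.12 to 1.21) than in control libraries (1.36 to 1.47), and TK1 stands far above TK2 in both groups.

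Ordered by mean FPKM over the 6 libraries, TK1 (83.2), APRT (63.4), IMPDH2 (60.1) and CMPK1 (57.5) were the 4 genes at 50 FPKM or more, 26 lay between 10 and 50 FPKM, and 18 were under 10 FPKM. The ranges of APRT, IMPDH2 and CMPK1 overlapped, so their order is not resolved, whereas the lowest TK1 library (73.9 FPKM) was above the highest APRT library (70.1 FPKM). ADSL and NME2 were the 2 genes under 1 FPKM.

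Further genes of nucleotide metabolism gave a like picture. Of 17 tested genes of synthesis and phosphorylation outside the 48, none passed the adjusted threshold, 10 had values above 0 and 7 below, and the median log2 fold change was 0.00. AK1, a cytosolic adenylate kinase, was the 1 of these 17 at the 1.2-fold thresholds, beside 4.88% of all tested genes (1.54% higher in knockdown). It had 1.37, 1.29 and 1.2 FPKM in knockdown libraries, against 1.14, 0.894 and 0.936 FPKM in control libraries, and a limma adjusted p of 0.355. PRPSAP2, which binds the PRPP synthetases, is named after its values were seen. It had 7.87, 8.01 and 7.46 FPKM in knockdown libraries, against 8.91, 9.62 and 9.22 FPKM in control libraries. Like PRPS2, it lay lower in all 3 knockdown libraries (log2 fold change -0.25, SE 0.0658, adjusted p = 0.22). Of the 17, 2 had groups that did not overlap and were lower in knockdown, PRPSAP2 and RRM2B (-0.17), beside 9.13% of all tested genes. Another 2, AK1 and UPRT, were separated and higher, beside 9.86%. PRPSAP1, also among the 17, had 10.5, 10.6 and 9.21 FPKM in knockdown libraries, against 9.94, 9.7 and 10.5 FPKM in control libraries. The PRPSAP1 groups overlapped, as did those of PRPS1, and its log2 fold change was 0.00 (SE 0.0762, adjusted p = 0.987). Of 18 tested genes of breakdown and transport, none passed, and the median was -0.05.

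Of 7 genes that supply the folate cofactors of purine and thymidylate synthesis, none passed the adjusted threshold, 5 had values below 0 and 2 above, and the median log2 fold change was -0.15. MTHFD2, the mitochondrial methylenetetrahydrofolate dehydrogenase, was the 1 of the 7 at the 1.2-fold thresholds, beside 4.88% of all tested genes (3.35% lower in knockdown). It had 21.0, 14.3 and 14.5 FPKM in knockdown libraries, against 23.2, 27.8 and 23.8 FPKM in control libraries (log2 fold change -0.60, SE 0.148, limma adjusted p = 0.185). MYC, a transcription factor known to bind promoters of many nucleotide synthesis genes, had 39.5, 34.4 and 31.6 FPKM in knockdown libraries, against 41.7, 47.7 and 44.6 FPKM in control libraries. The MYC groups did not overlap, with knockdown lower, as for 9.13% of all tested genes. Its log2 fold change of -0.35 (SE 0.0935, adjusted p = 0.223) met the 1.2-fold thresholds, beside 3.35% of all tested genes lower in knockdown. MAX, the partner of MYC, lay higher in all 3 knockdown libraries, as did 9.86% of all tested genes (log2 fold change 0.12, SE 0.0614, limma adjusted p = 0.52). PCNA, the DNA polymerase clamp, had 166, 202 and 186 FPKM in knockdown libraries, against 230, 185 and 213 FPKM in control libraries, with overlapping groups and an adjusted p of 0.595. All 15 proliferation genes had log2 fold changes below 0, as did 46.9% of all tested genes, and none passed the adjusted threshold or the 1.2-fold thresholds. Their median in control library 2 (-0.18) lay below that in knockdown libraries 2 (-0.03) and 3 (-0.12), so the groups overlapped in this median. Of the 15 genes, 2 had groups that did not overlap, MCM2 and MCM3, both lower in knockdown, beside 9.13% of all tested genes.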

How the data were processed

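Poly(A) RNA of 3 ANXA2P1 knockdown and 3 control cultures of AGS cells was captured on oligo-dT beads and made into libraries whose second strand carried U. The submitters' processing notes name Bowtie2, TopHat and hg38. Versions, read counter, annotation, strand setting and any filter on low values were not given in the sources used here. From these steps the authors deposited FPKM values, 1 column per library. Reads per gene were recovered as whole multiples of the value of 1 read (11844 of 11846 genes, 99.98%, within 0.001 to 0.05 reads), and give 19010940 to 22911995 reads per library.

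Log2(FPKM + 0.1) of genes with a mean of at least 0.5 FPKM was fitted with limma 3.58.1 in R 4.3.3 (trended, robust moderation), knockdown against control, with Benjamini-Hochberg adjustment over all 10813 genes and a threshold of 0.05. The 1.2-fold thresholds join the fold change the study gives for these libraries with an unadjusted two-sided limma p under 0.05. Joining them, and leaving the p unadjusted, was a choice made here. The fit was checked on 5 simulated data sets with 200 of the 10813 genes changed. Of genes changed by 0.5 log2 units 51.8% passed the adjusted p, and of those changed by 1 unit 92.2% did. The mean number of false calls was 5. A gene changed by 0.5 log2 units could thus often go without a call. The fold change understates the change of low genes. Groups came from the treatment labels. Replicate libraries differed by more than counting noise (chi-square per degree of freedom 2.85 to 36.2), and were each counted once.

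The genes, roles and further lists were chosen with earlier results of these data known. Values in each library are given, by rule, for 31 genes: 9 rate-limiting or committed enzymes, 7 paralog pairs, the neighbours PPAT and PAICS, the 2 genes of each role with the largest absolute moderated t, and any gene past the adjusted p or at the 1.2-fold thresholds. PRPSAP2 was named after its values were seen, and other further genes for completeness. Positions and shared 50-base stretches came from GENCODE 29 and promoters from RefSeq. Alternatives were another pseudocount (1 or 0.01), no filter, median or common-total scaling, no trend or robust moderation, array weights, limma-voom on recovered reads, a replicate block and leaving out each library. Nothing that depends on protein sequence was analysed here.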

Additional observations from a re-analysis of the deposited data

How the results depend on the processing

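With 3 libraries a group, the intervals printed beside the genes set what could be resolved, and NME2 (35 to 58 reads) was also limited by depth. Over the 15 alternatives, none of the 48 genes passed the adjusted p except without knockdown library 1 (2 genes, HPRT1 and ADA; 0 to 2 over the omissions). HPRT1 kept its direction throughout, from -0.569 to -0.407. The de novo minus salvage difference ran from -0.012 to 0.1. The causes of the changes below were not tested.

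Genes at the 1.2-fold thresholds numbered 1, against 4 with array weights (HPRT1, DCK, DUT, ADA) (8.51% of those tested, beside 5.72% of all genes), and 1 to 2 over the omissions. The 2 were 4.26% without knockdown library 1, beside 6.45% of all genes, and 4.26% without control library 2, beside 4.5%. Genes with separated groups numbered 9, against 10 to 16 over the omissions, in which fewer libraries must separate. The median of -0.012 was -0.063 with array weights and -0.063 to -0.001 over the omissions. Over all genes, 14 passed the adjusted p, against 0 without trend and robust moderation and 0 to 255 over the omissions, the 255 without knockdown library 1.

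The replicate numbers did not pair the samples (correlations of -0.34, -0.47 and -0.12 between same-numbered libraries); with a replicate block 1 gene of all passed, none of the 48 did, and 2 of them (HPRT1, ADA; 4.26%, beside 4.63% of all genes) met the 1.2-fold thresholds, against 1 without the block.

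Log2 fold changes near 0 changed sign. With array weights, whose estimation stopped before its convergence tolerance, PPAT was 0.001, IMPDH2 -0.017, CAD -0.028, CTPS2 -0.009, APRT -0.127, NME1 -0.118 and NME2 -0.08. With a common FPKM total CAD was -0.004, CTPS2 -0.002 and APRT -0.008, and with median rescaling APRT was -0.001. Over the omissions, values ran from -0.214 to 0.01 for PPAT, -0.003 to 0.048 for IMPDH1, -0.008 to 0.096 for IMPDH2, -0.043 to 0.078 for CAD, -0.107 to 0.043 for DHODH, -0.09 to 0.097 for CTPS1, -0.009 to 0.024 for CTPS2, -0.068 to 0.094 for APRT, -0.248 to 0 for TYMS, -0.202 to 0.009 for RRM1, -0.204 to 0.103 for RRM2 and -0.132 to 0.118 for NME1.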
